A study of Mus musculus with 10 samples.

Results

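The subject is the cytochrome P450 (Cyp) genes of families 1 to 4, measured in the livers of 10 mice. Members were all non-control probes whose gene name in the array files is Cyp, a digit from 1 to 4, a letter and a number. This gave 54 genes with 81 probes, out of 27962 genes on the array, and for each gene the probe with the brightest mean liver signal was used. No measured difference entered the rule for members or the choice of probe, but the members were chosen with earlier results of these data known. The study set livers of mice lacking the glucagon receptor (labelled GCGR ko/ko, here KO, 3 females and 2 males) against wild-type livers (wt/wt, here WT, 2 females and 3 males). KO 2, KO 3 and KO 4 were female and KO 1 and KO 5 male, while WT 3 and WT 4 were female and WT 1, WT 2 and WT 5 male. The labels used here name no strain, age, diet or deleted part of the gene, so whether the receptor was missing outside the liver is not known from them. Liver RNA was labelled with Cy5 and hybridised on 2-colour Agilent arrays with a Cy3-labelled pool of mouse RNA. A level below is a log2 ratio of liver over that pool, which can be compared between livers for 1 probe but not between probes.

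P450 enzymes are haem proteins of the endoplasmic reticulum that insert an oxygen atom into their substrates, using electrons passed on by P450 reductase. In liver, families 1 to 3 oxidise drugs, plant toxins, steroids, retinoids and bile acids, and family 4 hydroxylates fatty acids and eicosanoids at the end of the chain. Their genes answer to the receptors AHR, CAR, PXR and PPARα, and in mice many of them differ between the sexes under the pattern of growth hormone release.

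Gcgr itself averaged 0.32 ± 0.04 in KO livers and 7.99 ± 0.16 in WT livers (SD, n = 5 each), so all 10 livers matched their genotype label. All 8 measured hepatocyte markers, Alb among them, were well above background in each liver, and 0 of the 8 passed the test for genotype in limma (1 at an unadjusted p under 0.05). Of 11 endothelial markers 3 rose in KO livers (Lyve1 by 1.47, Oit3 by 0.34 and Pecam1 by 0.26 on the log2 scale). The summed endothelial ratio was 186 to 222 in KO livers and 124 to 190 in WT livers. Adipocyte markers summed to 12.5 to 175.7 in KO livers and 14.6 to 19.3 in WT livers, the top from Cfd in the male KO 1, while the defining adipocyte marker Adipoq was above background on 0 arrays. Neutrophil markers summed to 7.07 to 40.5 in KO livers and 5.20 to 9.07 in WT livers, the highest being the male KO 5. Of 12 lymphocyte markers 1 rose, Cd79b by 0.48, with summed ratios of 15.4 to 16.8 in KO livers and 15.1 to 21.2 in WT livers. Of 6 measured kidney and gut markers 1 fell, Umod by 0.30, with sums of 91.2 to 122.6 in KO livers and 83.6 to 132.3 in WT livers. The part of these cells in the P450 values was not tested. The arrays lay on 4 slides, with KO 1, KO 2, WT 1 and WT 2 on slide 1, KO 3 and KO 4 on slide 2, KO 5, WT 3 and WT 4 on slide 3, and WT 5 on slide 4. In whole liver, fewer cells of a type and less RNA per cell cannot be told apart.

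Genotype was tested with limma over all 19059 genes above background, with sex in the model, and genes with a Benjamini-Hochberg adjusted p under 0.05 are said to have passed, risen or fallen. All 54 members were above the background filter, 51 of them on all 10 arrays. Of the 54, 2 rose (Cyp2c38 and Cyp2j9) and 2 fell (Cyp2g1 and Cyp4v3) in KO livers. That is 7.41% of the members, near the 6.04% of all genes that passed (2.9% rose and 3.14% fell). The levels of KO and WT livers did not overlap for 3 members (Cyp2g1, Cyp2j9 and Cyp2j6), or 5.56%, against 6.08% of all genes. By sign, 25 members were higher and 29 lower in KO livers. The median log2 difference was -0.01 for the members and -0.003 for all genes, and the median absolute difference 0.12 and 0.10.

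For most members the interval of the genotype difference was narrow. Among the 50 members that did not pass, the 95% interval lay within 2-fold in both directions for 47 and within 1.5-fold for 44. The 3 with a wider interval were Cyp2b9, Cyp2b13 and Cyp4a14, whose levels differ widely between or within the sexes. Over all 54 members tested, the interval lay within 2-fold for 49, against 97.6% of all genes tested. A narrow interval was therefore not particular to the members. Across subfamilies, all 3 Cyp2a members and all 4 Cyp2b members had a negative KO minus WT value, but 0 of the 7 passed in limma (2 at an unadjusted p under 0.05), and the 6 Cyp3a members lay between -0.16 and 0.05. At their brightest probes, the sign of Cyp2b9, Cyp2b10 and Cyp2b13 rested on the male KO 5. Without it Cyp2b9 was at 0.14, Cyp2b10 at 0.11 and Cyp2b13 at 0.08, while Cyp2b19 stayed negative at -0.15. The chosen Cyp2a4 and Cyp2a5 probes have overlapping coordinates in the array files, so their values may come from the same RNA.

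**Figure D1:**
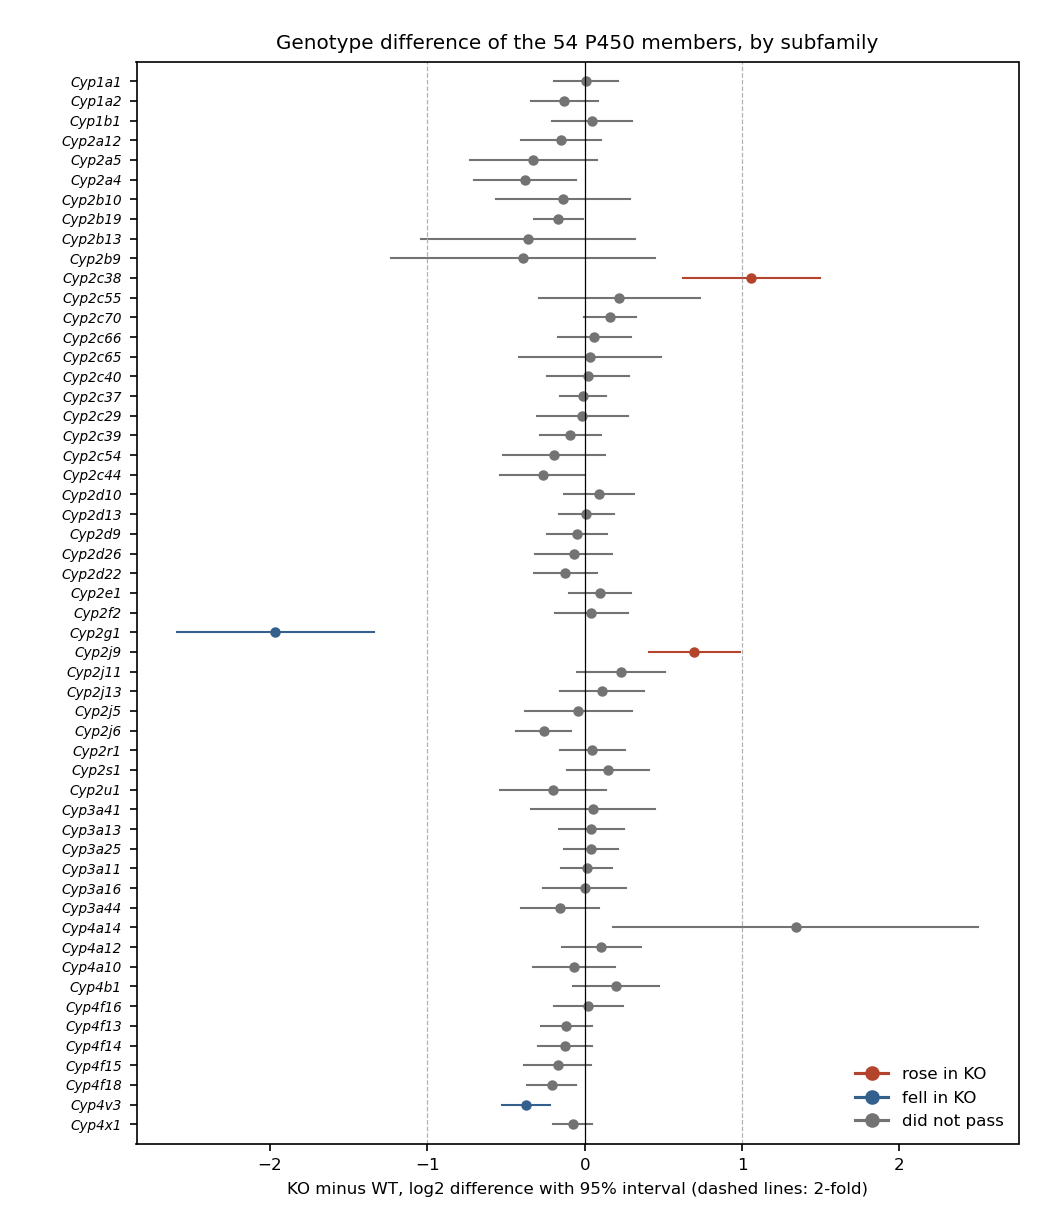
KO minus WT difference of each of the 54 P450 members on the log2 scale (points) with its 95% interval (lines), grouped by subfamily down the page, with dashed lines at 2-fold. Cyp2g1 at -1.97 and Cyp2c38 at 1.06 lay past 2-fold and passed, Cyp2j9 and Cyp4v3 passed with smaller differences, and Cyp4a14 had the widest interval.

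Cyp2g1, a steroid hydroxylase known from the olfactory mucosa, had the largest difference of the members. In KO 1 to KO 5 its levels were 0.69, 1.03, 1.56, 1.12 and 1.12, and in WT 1 to WT 5 they were 2.19, 1.61, 4.03, 4.0 and 2.37. All 5 KO livers lay below all 5 WT livers, and the female WT 3 and WT 4 stood far above the male WT livers. Cyp2g1 fell by 1.97 on the log2 scale (SE 0.29, limma adjusted p = 0.0029), a 3.91-fold lower level. In females the difference was -2.78 and in males -1.15 (SE 0.23 each). The difference between the sexes was -1.62 (SE 0.32, limma adjusted p = 0.126) and did not pass. With slide as a block the difference was -1.69, and among the males of slide 1 (KO 1 against WT 1 and WT 2) it was -1.21. Slides 2 and 4 each held a single genotype, so here and below that fit draws the genotype difference from slides 1 and 3 alone. On slide 3 genotype and sex changed together. The array files place this probe at chromosome 7, 23718352 to 23718411 (build mm7 in their header). Without the sex term the difference was -1.74 and did not pass (limma adjusted p = 0.059). A second Cyp2g1 probe was above background on 0 arrays, so only 1 probe carries the result.

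Cyp2c38 belongs to the Cyp2c enzymes that turn arachidonic acid into epoxides and alcohols. Its level was 2.91, 3.76, 3.36, 3.29 and 1.91 in KO 1 to KO 5 and 1.10, 0.82, 2.89, 2.59 and 1.15 in WT 1 to WT 5. Within each sex all KO livers lay above all WT livers, but the groups overlapped, with both female WT livers above the male KO 5. Cyp2c38 rose by 1.06 (SE 0.20, limma adjusted p = 0.011), or 2.08-fold, with 0.73 in females and 1.39 in males. Its second probe rose as well, by 0.80 (SE 0.14, limma adjusted p = 0.0075 over 26956 probes). With slide as a block the difference was 1.26, and among the males of slide 1 it was 1.95, while on slide 3, where the KO liver was male and both WT livers female, it was -0.83. The Cy3 pool was above background for the first probe on 0 arrays, so the denominator of its ratio is background signal. With the scanner's own log ratio the difference was 1.22 and did not pass (limma adjusted p = 0.055).

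The other 10 Cyp2c members did not pass for genotype and lay between -0.27 (Cyp2c44) and 0.22 (Cyp2c55). They include Cyp2c70, the enzyme that makes muricholic acids in mice, at 0.16 (SE 0.08). Cyp2c39, whose upstream sequence was the closest to that of Cyp2c38 among the Cyp2c members with a window, had a log2 difference of -0.09 (SE 0.09). In the RefSeq promoter table (build GRCm38.p6), 44 of the 54 members matched by symbol, and the 250 bases before the start were used. Cyp2c38 and Cyp2c39 are shown because one passed for genotype and the other did not, which is not a test of the difference between them. They share 75.8% of aligned positions at the first of the 2 Cyp2c39 windows in the table, printed here, and 71% at the second. The first lies before the Cyp2c38 window on the chromosome, and the second (chr19:39510572-39510821) past it. In the array files (build mm7) the Cyp2c39 probe lies past both Cyp2c38 probes. The printed window may therefore not belong to the measured transcript, which was not tested. Cyp2c38 lies on the minus strand at chr19:39463076-39463325 and Cyp2c39 on the plus strand at chr19:39347096-39347345. Capitals would mark the motifs searched, and these windows hold none:
Cyp2c38: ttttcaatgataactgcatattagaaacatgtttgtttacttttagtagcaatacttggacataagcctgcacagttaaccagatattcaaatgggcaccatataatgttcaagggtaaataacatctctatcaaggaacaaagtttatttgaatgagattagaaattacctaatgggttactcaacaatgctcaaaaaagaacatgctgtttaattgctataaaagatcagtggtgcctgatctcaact
Cyp2c39: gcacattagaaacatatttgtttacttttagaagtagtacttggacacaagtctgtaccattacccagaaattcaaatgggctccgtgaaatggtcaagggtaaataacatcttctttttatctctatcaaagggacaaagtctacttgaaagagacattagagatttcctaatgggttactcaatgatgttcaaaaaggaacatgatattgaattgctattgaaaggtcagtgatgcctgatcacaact

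The motifs, searched on both strands, were the core of the cAMP response element (TGACG), its palindrome (TGACGTCA), the core of the AHR element (GCGTG), and the STAT5 site (TTCNNNGAA). TGACG was in 1 or more windows of 2 of the 44 members and in 17.8% of all 32851 windows, counted singly. GCGTG was in windows of 8 of the 44 and in 28.2% of all. TTCNNNGAA was in 3 of 44 and in 7.02%, and TGACGTCA in 0 of 44 and in 1.55%. Windows of member genes in 1 cluster share sequence and are not independent. A match is a description of letters, not a site.

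Cyp2j9 makes hydroxylated products of arachidonic acid and is best known from mouse brain. In KO 1 to KO 5 its level was 5.67, 5.25, 5.44, 5.86 and 5.54, against 4.97, 5.15, 4.44, 4.81 and 5.20 in WT 1 to WT 5. Every KO liver was above every WT liver, although KO 2 and WT 5 were 0.05 apart. Cyp2j9 rose by 0.70 (SE 0.13, limma adjusted p = 0.011), or 1.62-fold, with 0.89 in females and 0.50 in males. The value was 0.57 with slide as a block and 0.61 among the males of slide 1. With the scanner's own log ratio it was 0.65 and did not pass (limma adjusted p = 0.134), and the Cy3 pool was above background on 3 arrays only. The other Cyp2j members did not pass. Cyp2j6, singled out here because its groups did not overlap, had a difference of -0.26 (SE 0.08, limma adjusted p = 0.084). Cyp2j5, the brightest of the subfamily and an epoxygenase of liver and kidney, was at -0.04 (SE 0.16).

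Cyp4v3 is the mouse counterpart of the human fatty acid hydroxylase CYP4V2. Levels were 5.92, 5.40, 5.58, 5.46 and 5.91 in KO 1 to KO 5 and 6.34, 6.30, 5.97, 5.73 and 6.24 in WT 1 to WT 5. Each KO female lay below both WT females and each KO male below all WT males, while the genotypes overlapped, with both KO males above the female WT 4. Cyp4v3 fell by 0.37 on the log2 scale (SE 0.07, limma adjusted p = 0.0097), a 1.30-fold lower level, with -0.37 in females and -0.38 in males. With slide as a block the value was -0.42, among the males of slide 1 -0.40, and on slide 3, across the sexes, 0.06. Without both KO males it was -0.37 and did not pass (limma adjusted p = 0.086). When outlier spots were removed after background correction it was -0.20, and it did not pass (limma adjusted p = 0.781). With median centring in place of loess it was -0.29 and did not pass (limma adjusted p = 0.485).

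The promoters of these 2 genes are shown because each holds 1 or more of the motifs searched, with the matches in capitals. Cyp2j9 (minus strand, chr4:96591486-96591735) holds a GCGTG 171 bases and a TGACG 168 bases before the start, and the matches overlap. Cyp4v3 (minus strand, chr8:45333164-45333413) holds a GCGTG 16 bases before the start:
Cyp2j9: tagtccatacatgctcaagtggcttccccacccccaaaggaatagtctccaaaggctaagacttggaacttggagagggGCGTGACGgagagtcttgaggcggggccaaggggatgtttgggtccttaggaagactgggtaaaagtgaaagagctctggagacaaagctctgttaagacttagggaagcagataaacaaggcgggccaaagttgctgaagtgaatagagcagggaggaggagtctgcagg
Cyp4v3: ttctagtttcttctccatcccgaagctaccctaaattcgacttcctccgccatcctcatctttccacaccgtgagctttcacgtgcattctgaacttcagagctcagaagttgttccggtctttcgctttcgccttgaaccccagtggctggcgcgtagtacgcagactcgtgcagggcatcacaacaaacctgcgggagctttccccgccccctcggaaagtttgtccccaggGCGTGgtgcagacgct

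**Figure D2:**
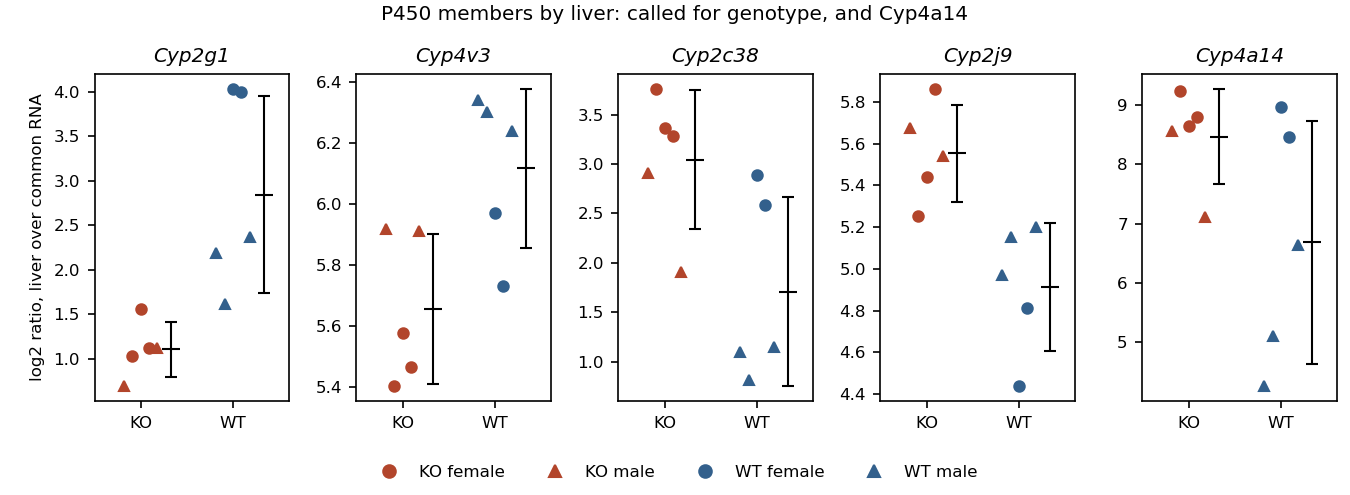
Level of 5 P450 members in each liver (log2 ratio over the common RNA), KO left and WT right in each panel, circles for females and triangles for males, with the mean ± SD of the 5 livers beside the points. Cyp2g1 and Cyp2j9 separated the genotypes, Cyp2c38 and Cyp4v3 separated them within each sex, and Cyp4a14 was lowest in the 3 male WT livers.

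Cyp4a14, a fatty acid omega-hydroxylase and a textbook PPARα target, had a log2 difference of 1.34 (SE 0.53) that did not pass (limma adjusted p = 0.172). Its levels were 8.56, 9.24, 8.65, 8.80 and 7.11 in KO 1 to KO 5 and 4.25, 5.09, 8.98, 8.47 and 6.63 in WT 1 to WT 5. The 3 male WT livers were the lowest of all, the male KO 5 was next, and the male KO 1 lay among the females. In males the KO minus WT difference was 2.51 and in females 0.17 (SE 0.59 each), and the difference between the sexes was -2.34 (SE 0.83, limma adjusted p = 0.322). The value was 3.89 among the males of slide 1. With slide as a block it was 2.16 and passed (limma adjusted p = 0.044), which it did in that setting alone of the 24 tried for it. That fit draws on slides 1 and 3 alone, so KO 1 stands there against WT 1 and WT 2, without WT 5. On slide 3, where KO 5 was male and both WT livers female, the value was -1.61. The PPARα target Cyp4a10 was at -0.07 (SE 0.12) and the male-specific Cyp4a12 at 0.11 (SE 0.12). Cyp4b1 was at 0.20 (SE 0.12), the leukotriene hydroxylases Cyp4f14 and Cyp4f18 at -0.13 (SE 0.08) and -0.21 (SE 0.07), and the brain enzyme Cyp4x1 at -0.08 (SE 0.06), and none of these 4 passed.

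The main drug- and toxin-oxidising members did not pass for genotype at their brightest probes. Cyp2e1, which oxidises ethanol and paracetamol, was at 7.59, 7.53, 7.53, 7.66 and 7.86 in KO 1 to KO 5 and at 7.69, 7.65, 7.63, 7.22 and 7.70 in WT 1 to WT 5. Apart from the lower WT 4, these levels overlapped closely, and the difference was 0.10 (SE 0.09). Cyp3a11, the major drug-oxidising member of its subfamily in mouse liver, ranged from 6.52 to 6.81 in KO livers and from 6.39 to 6.88 in WT livers, with a difference of 0.01 (SE 0.07). Cyp3a41, the brightest Cyp3a probe, was at 0.05 (SE 0.18). The array files place it and both Cyp3a44 probes within chromosome 5, 144587472 to 144587854. Its value may therefore come in part from related RNA, which was not tested. The naphthalene-oxidising Cyp2f2 was at 0.04 (SE 0.11) and Cyp2d26 at -0.07 (SE 0.11). Cyp2r1, a vitamin D 25-hydroxylase, was at 0.05 (SE 0.09). The coumarin hydroxylase Cyp2a5 was at -0.33 (SE 0.19), and the CAR target Cyp2b10 at -0.14 (SE 0.20). For the members expressed mostly outside liver, Cyp1b1 was at 0.05 (SE 0.12) and Cyp2s1 at 0.15 (SE 0.12).

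Cyp1a2, the AHR target that oxidises caffeine and aromatic amines, gave different answers at its 2 probes. The brighter one ranged from 4.73 to 5.14 in KO livers and from 4.89 to 5.31 in WT livers, overlapping, with a difference of -0.13 (SE 0.10, limma adjusted p = 0.500). The other was at 5.48, 5.42, 5.58, 5.14 and 5.52 in KO 1 to KO 5 and at 6.03, 6.13, 6.12, 5.91 and 6.07 in WT 1 to WT 5. There all KO livers lay below all WT livers, and the level fell by 0.60 (SE 0.09, limma adjusted p = 0.0028 over all probes). Both probes cite the same RefSeq transcript in the files. Cyp1a2 also passed as the mean over its probes (-0.37, limma adjusted p = 0.021) and, at its brightest probe, from the Cy5 channel alone (-1.09, limma adjusted p = 0.0022). Of the 27 further probes of the members, 19 were above the filter and 4 passed for genotype. Besides the Cyp1a2 and Cyp2c38 probes these were a second Cyp2a4 probe (-0.59, limma adjusted p = 0.048) and another Cyp2d22 probe (-0.47, limma adjusted p = 0.024), singled out after their values were seen. Cyp2a4 is a testosterone hydroxylase, and its brightest probe was at -0.38 (limma adjusted p = 0.168).

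**Figure D3:**
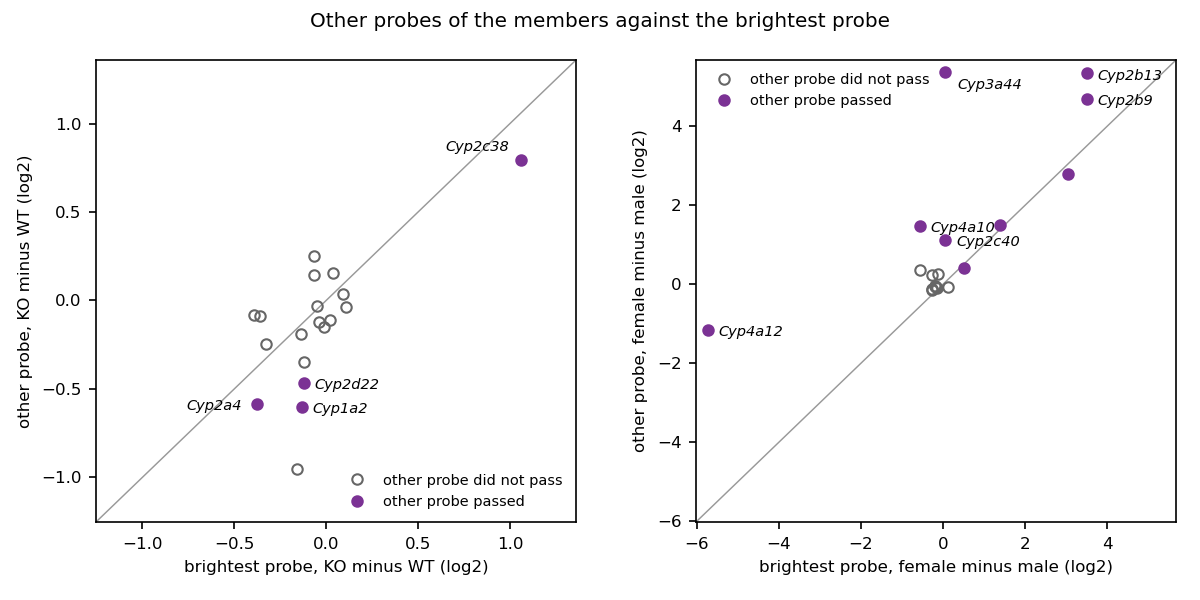
The 19 further probes of the members above background against the brightest probe of the same gene, for KO minus WT (left) and female minus male (right), in log2 units, with the line of equality. Filled points passed at the further probe. Cyp1a2, Cyp2a4 and Cyp2d22 passed for genotype there alone, and Cyp3a44 and Cyp2c40 for sex.

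Sex was in the model, since the groups held unequal numbers of females and males. In the same fit 12 of the 54 (22.2%) differed between females and males, against 11.6% of all genes. Of these, 8 were higher in females (14.8%, against 5% of all genes) and 4 in males (7.41%, against 6.57%). Female and male levels did not overlap for 10 members (18.5%, against 9.27% of all genes). The median absolute sex difference was 0.18 for the members and 0.11 for all genes. The sex difference was larger than the genotype difference for 35 of the 54 members, and for 52.8% of all genes. No test of the members as a list was made.

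Cyp4a12, which makes 20-HETE from arachidonic acid and is known as male-specific in mice, had the largest sex difference. Female levels were 1.26, 0.81 and 0.78 in KO 2, KO 3 and KO 4 and 0.78 and 0.82 in WT 3 and WT 4. Male levels were 6.48 and 6.77 in KO 1 and KO 5 and 6.34, 6.60 and 6.76 in WT 1, WT 2 and WT 5. The sexes were far apart in both genotypes, by -5.72 (SE 0.12, limma adjusted p = 8.4e-11), or 52.7-fold. Cyp2u1, a fatty acid hydroxylase, was also lower in females, at 0.80 to 1.13 in KO and 1.15 to 1.59 in WT, than in males, at 2.62 to 2.97 in KO and 2.48 to 3.13 in WT. Its sex difference was -1.62 (SE 0.15, limma adjusted p = 6.1e-05). Cyp4v3 was lower in females as well (-0.44, SE 0.07, limma adjusted p = 0.0016). This passed in 20 of 23 alternatives, and was lost with median centring, with outlier spots removed after normexp and with the replicate block.

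Of the Cyp2b genes, 3 were higher in females. Cyp2b9 was at 6.98, 7.04 and 7.33 in KO 2, KO 3 and KO 4 and at 7.29 and 7.0 in WT 3 and WT 4, against 4.41 and 2.11 in KO 1 and KO 5 and 3.48, 3.84 and 4.72 in WT 1, WT 2 and WT 5. Females lay together whatever the genotype, and among the males KO 5 stood lowest. The difference between females and males was 3.50 (SE 0.38, limma adjusted p = 0.00015) for Cyp2b9, 3.51 (SE 0.31, limma adjusted p = 3.9e-05) for Cyp2b13 and 3.05 (SE 0.20, limma adjusted p = 3.4e-06) for Cyp2b10. KO 5 was the lowest of all 10 livers for each of the 3, at 1.5 for Cyp2b13 and 1.12 for Cyp2b10. At the further Cyp2b9 probe KO 5 was at 0.41 and the other males at 1.0 to 1.36, with females at 5.52 to 5.80. At the further Cyp2b10 probe KO 5 was at 1.23 and the other males at 2.28 to 3.13. At the further Cyp2b13 probe KO 5 was at 0.40 and the other males at 0.30 to 0.64, so the low KO 5 was not seen there. The sex differences at these further probes were 4.69 for Cyp2b9, 5.33 for Cyp2b13 and 2.78 for Cyp2b10. The fourth member, Cyp2b19, did not differ between the sexes past the threshold (-0.17, SE 0.07).

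The upstream windows of these 3 genes, all on the plus strand of chromosome 7, are shown because all 3 genes were higher in females. Those of Cyp2b9 (chr7:26173159-26173408) and Cyp2b13 (chr7:26061245-26061494) differ at 2 of 250 positions, an identity of 99.2%. That of Cyp2b10 (chr7:25897408-25897657) shares 68.8% of aligned positions with each and holds GCGTG, in capitals here or as its reverse complement CACGC, at 101 and 9 bases before the start:
Cyp2b9: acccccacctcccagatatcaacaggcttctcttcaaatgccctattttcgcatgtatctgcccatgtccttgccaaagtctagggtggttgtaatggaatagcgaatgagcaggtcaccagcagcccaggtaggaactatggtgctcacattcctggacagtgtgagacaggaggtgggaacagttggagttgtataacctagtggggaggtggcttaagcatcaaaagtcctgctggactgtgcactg
Cyp2b13: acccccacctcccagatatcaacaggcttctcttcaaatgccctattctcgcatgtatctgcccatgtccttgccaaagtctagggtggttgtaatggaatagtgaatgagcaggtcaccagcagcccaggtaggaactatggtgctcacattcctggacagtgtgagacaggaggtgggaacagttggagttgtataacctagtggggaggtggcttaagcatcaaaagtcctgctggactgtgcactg
Cyp2b10: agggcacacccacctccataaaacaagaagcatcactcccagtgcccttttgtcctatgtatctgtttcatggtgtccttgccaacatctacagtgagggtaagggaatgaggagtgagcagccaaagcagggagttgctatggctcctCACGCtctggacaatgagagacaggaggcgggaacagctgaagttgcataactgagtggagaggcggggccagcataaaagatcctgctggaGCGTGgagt

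Sex differences also passed in 6 further members, of which Cyp4a10 alone was lower in females. Cyp4a14 was higher in females by 2.23 (SE 0.53, limma adjusted p = 0.019), with 1.06 in KO and 3.4 in WT livers. It did not pass without WT 3 (1.86) or without WT 4 (2.06), nor with the scanner's log ratio, with weights for the arrays or with the replicate block. Cyp2g1 was higher in females by 1.15 (SE 0.29, limma adjusted p = 0.024), with 0.33 in KO and 1.96 in WT livers. This too was lost without WT 1 (1.10), WT 3 (0.95) or WT 4 (0.96). It was also lost with the scanner's log ratio, with outlier spots removed after normexp and with the replicate block. Cyp2c38 was higher in females by 1.39 (SE 0.20, limma adjusted p = 0.00088). Cyp2c37 (0.51, SE 0.07) and Cyp4f18 (0.38, SE 0.07) were modestly higher in females. The Cyp4f18 difference passed in 19 of 23 alternatives. It was lost with median centring, with outlier spots removed after normexp, with the replicate block and without both KO males. Cyp4a10 was at -0.57 (SE 0.12, limma adjusted p = 0.0095), but its 2 further probes were at 0.36 and 1.48, and the second of these passed in the opposite direction (limma adjusted p = 0.0082).

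**Figure D4:**
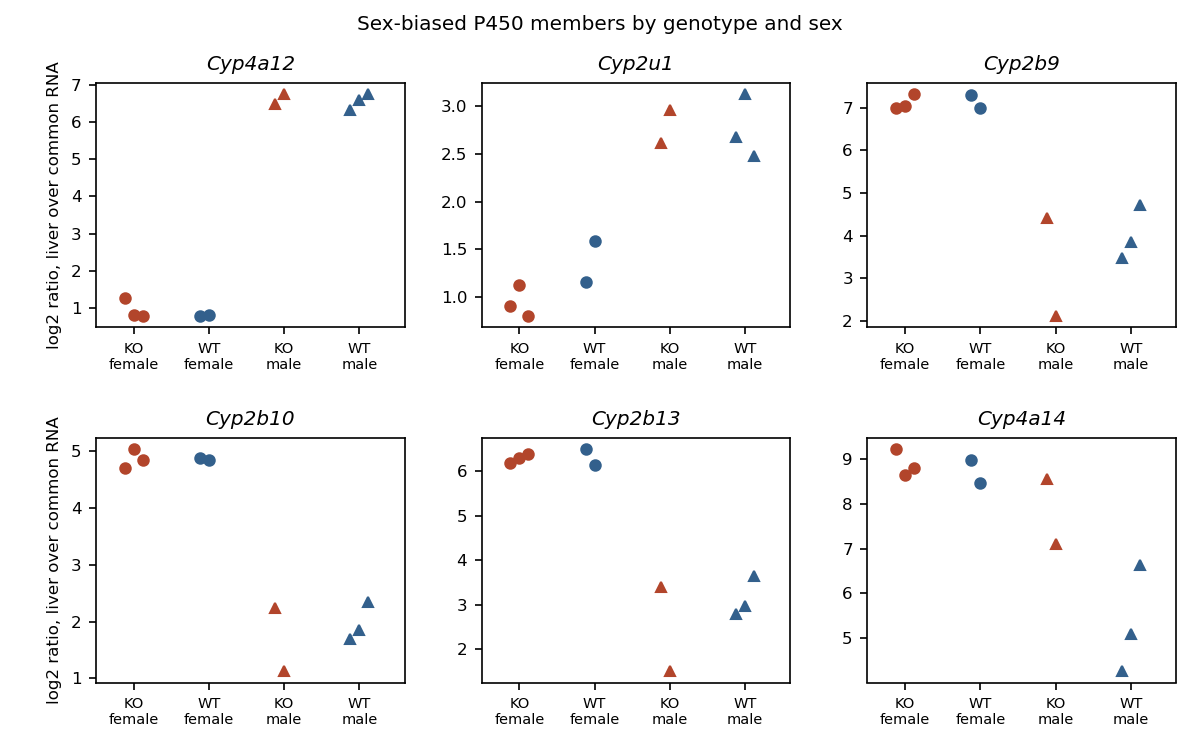
Level of 6 sex-biased P450 members in each liver (log2 ratio over the common RNA), by sex and, within sex, KO left of WT. Cyp4a12 and Cyp2u1 were high in males, the Cyp2b genes and Cyp4a14 in females, and the single low male KO point in the Cyp2b panels is KO 5.

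Sex differences of members with near-identical neighbours are uncertain, since a probe can bind the RNA of a related gene. The brightest Cyp3a44 probe was at 0.06 (SE 0.11) for sex, while its further probe, singled out after its values were seen, was at 5.38 (SE 0.45, limma adjusted p = 2.6e-05). That further probe read 4.20, 5.91 and 6.28 in KO females and 8.0 and 6.89 in WT females, against 1.06 to 1.18 in KO males and 0.90 to 1.15 in WT males. Among females the KO livers all lay below the WT livers, and the genotype difference over both sexes was -0.95 (SE 0.45, limma adjusted p = 0.269). Cyp2c40 was at 0.06 (SE 0.12) and 1.13 (SE 0.13, limma adjusted p = 0.0002) at its 2 probes. For Cyp4a12 the further probe gave -1.15 (SE 0.09) in place of -5.72. Which transcripts each probe binds was not tested.

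Whether the genotype effect differed between females and males was tested with an interaction term. It passed for 0 of the 54 members in limma, against 0.0315% of all genes (6 genes). At an unadjusted p under 0.05 there were 7 members and 2394 genes. With 2 or 3 livers in each cell of this design, the differences named above for Cyp2g1 and Cyp4a14 are therefore values, not calls.

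**Figure D5:**
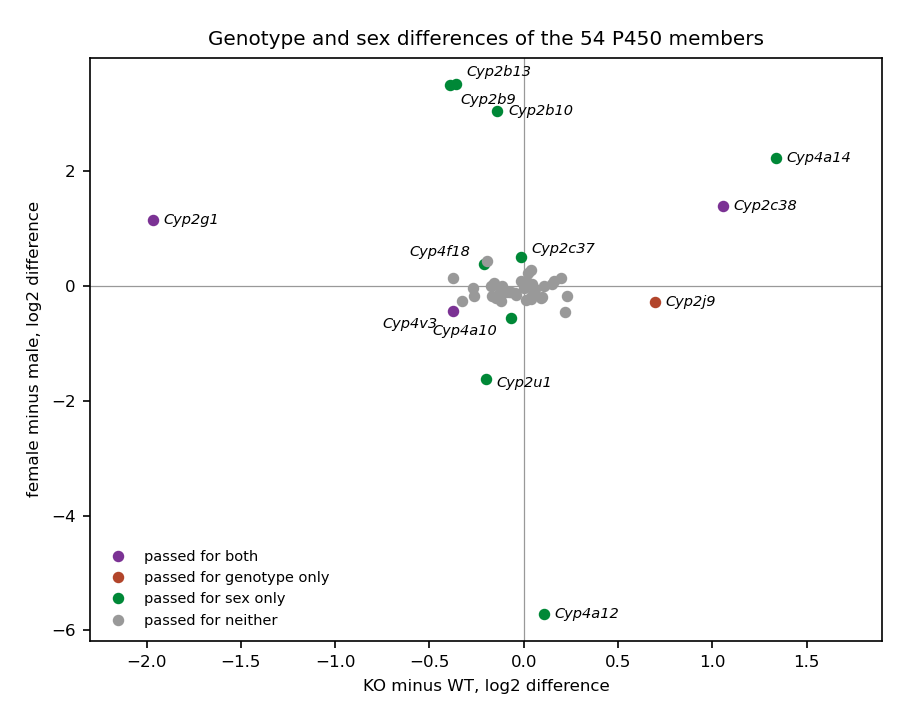
KO minus WT (horizontal) against female minus male (vertical) difference of the 54 P450 members, in log2 units, coloured by which test each passed. Cyp4a12 at -5.72 and the 3 Cyp2b genes at 3.05 to 3.51 for sex did not pass for genotype, and Cyp2j9 is the only member that passed for genotype without passing for sex.

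The partners of the P450 enzymes were read from lists of known genes. Of 17 genes of electron donors and haem supply, 0 passed in either direction in limma (8 at an unadjusted p under 0.05), with Por, the P450 reductase, at 0.10 (SE 0.18). Of 22 measured receptors and partners 2 rose, Foxa1 by 0.86 (SE 0.21) and Nfe2l2 by 0.38 (SE 0.09), and 1 fell, the coactivator Ppargc1a by 0.50 (SE 0.10). The receptors themselves did not pass: PXR (Nr1i2) was at 0.16 (SE 0.10), CAR (Nr1i3) at -0.13 (SE 0.10), Ahr at -0.36 (SE 0.12) and Ppara at -0.01 (SE 0.07). Nr1i3 was higher in females by 0.46 (limma adjusted p = 0.015). Of the 17 measured P450 genes of other families, 0 rose and 2 fell, both of sterol and bile acid metabolism: Cyp8b1 by 1.03 (SE 0.20) and Cyp7b1 by 0.49 (SE 0.13). The medians of these 3 lists were 0.07, -0.04 and -0.02.

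Known targets of the same receptors outside the P450s were read in the same way. Of 22 CAR and PXR targets 6 rose and 2 fell, with a median of 0.09. Gstm1 rose by 0.60 (SE 0.10), Gsta4 by 0.61 (SE 0.10), Ephx1 by 0.61 (SE 0.10), Abcc3 by 0.36 (SE 0.07), Akr1b7 by 1.32 (SE 0.18) and Gadd45b by 1.55 (SE 0.31). Gstm2 fell by 1.05 (SE 0.14) and Aldh1a1 by 0.43 (SE 0.11), so the list did not move one way. Of 27 PPARα targets 4 rose and 0 fell, with a median of 0.28. These were the hormone Fgf21 (2.48, SE 0.20), the pantetheinase Vnn1 (1.45, SE 0.26), the lipid droplet protein Cidec (1.40, SE 0.34) and the peroxisome factor Pex11a (1.06, SE 0.16). Of 5 AHR targets 1 rose, Nfe2l2. Of 28 other phase I enzymes 4 rose (Ephx1, Aox1, Cbr1 and Maoa) and 1 fell (Aldh1a1).

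Of 16 regulators of growth hormone response and sex bias, Socs2, a growth hormone feedback inhibitor, rose by 1.88 (SE 0.45), and those that fell included Igf1 by 0.35 (SE 0.07) and the oestrogen receptor Esr1 by 0.45 (SE 0.10). Of 17 sex-biased genes outside the P450s 1 rose, the peroxisomal transporter Abcd2, by 0.85 (SE 0.15). Expression of many P450 genes, though not all, is known to be strongest around the central vein. Of 17 pericentral genes outside the P450s, 0 rose and 6 fell, with a median of -0.36: Oat by 3.25 (SE 0.18), Lgr5 by 0.69 (SE 0.18), Slc1a2 by 0.63 (SE 0.10), Slc1a4 by 0.52 (SE 0.09), Lect2 by 0.43 (SE 0.06) and Aldh1a1 by 0.43 (SE 0.11). Of 17 periportal genes 2 rose (Cdh1 and Apoa4) and 7 fell (Sds, Sdsl, Gls2, Ass1, Asl, G6pc and Aldh1b1), with a median of -0.34. Among the members named above, the pericentral Cyp2e1 and Cyp1a2 were at 0.10 and -0.13 at their brightest probes. The other Cyp1a2 probe fell by 0.60. The members were not sorted by zone, so these values do not stand for all pericentral members. Counts of these lists stand beside the 2.9% of all genes that rose and the 3.14% that fell, and the lists were not tested.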

How the data were processed

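Cy5-labelled RNA of 10 livers was hybridised with a common Cy3-labelled reference on 2-colour arrays, with no dye swap. The scanner software was Agilent Feature Extraction 10.7, according to the submitters' processing notes. The deposited mean signals and local backgrounds are linear intensity values per the file headers, and the deposited LogRatio is a log10 of processed Cy5 over Cy3. The authors' deposited value table holds log2 ratios, as its values showed: column medians were 0.0078 to 0.023, and each column correlated with the ratios computed here at 0.9994 to 0.9996. The steps behind it are not given in the sources at hand.

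Flagged spots were removed, among them 169 to 291 non-control spots per array (of 45018 spots, 1639 were controls). Signals were corrected with normexp (offset 50), and log2 ratios were normalised by loess within arrays, with control spots at weight 0. The brightest probe of each gene was kept, if its Cy5 signal was well above background on 4 or more arrays. Median net Cy5 was 112 to 134 on slides 1 and 2. It was 58.7 to 78.9 on slides 3 and 4, which held KO 5, WT 3, WT 4 and WT 5. Signal strength was thus unequal between the genotypes, and its part in the differences was not tested. The number of arrays limits the precision. Models with genotype and sex, or with their interaction, were fitted in limma 3.58.1 (R 4.3.3), adjusted over 19059 genes, and tested on simulated data. Livers were taken as separate mice, from the design text. Arrays lay on 4 slides, used as blocks and within-slide alternatives. Names are those in the files. Cyp2c44, Cyp3a41 and Cyp4a12 are now Cyp2c23, Cyp3a41a and Cyp4a12a in RefSeq. Promoters were aligned with Biopython 1.88.

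The members and all lists were chosen with earlier results of these data known. Named were members that passed for genotype, the 12 with the largest sex differences among those that passed, the brightest of each subfamily, Gcgr, Por and the receptors Nr1i2, Nr1i3, Ahr and Ppara, and in each list the genes that passed. A member that passed for the interaction would also have been named. 1 list gene that passed is not reported here.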

Additional observations from a re-analysis of the deposited data

Results flagged for a closer look

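The KO livers and the WT livers of the 27 members chosen by the naming rule made 54 groups of 5. In 5 of these groups 1 liver stood apart from the other 4 by more than Dixon's test allows at its 95% level. For independent groups of like livers, chance does so in about 1 group in 20. These groups mix the sexes and share livers, so that rate need not hold for them. The female WT 4 was low for Cyp2e1 (7.22, with the next WT liver at 7.63), Cyp2j5 (7.96, next 8.76), Cyp2d26 (7.42, next 7.88) and Cyp2f2 (6.76, next 7.24). The female KO 2 was low for Cyp2a5 (8.54, next 9.21). The WT 4 array also had the fewest probes well above background in Cy5 (22130, against 24783 to 29848 on the other 9). The part of this in the 4 low values was not tested.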

How the results depend on the processing

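Among 1113 comparisons over 25 alternatives to the main analysis, 39 lost a call, 5 gained one and 5 reversed a value that had passed, while changes of sign in values that had not passed were not counted. All genes that passed for genotype numbered 1152 in the main analysis, 285 with median centring, 341 with outlier spots removed after normexp, 630 without the sex term, 309 with the replicate block, and 606 (without WT 3) to 1197 (without WT 5) with 1 liver left out. It was 610 without KO 1 and 674 without KO 4. Members that passed for genotype numbered 4, and the same 4 in each of the 10 analyses that left out 1 liver. They numbered 6 with Cy5 alone, 6 as the mean over probes, 6 at the second probe, 5 with slide as a fixed or a random block, and 3 with median centring (without Cyp4v3). They numbered 2 with the scanner's log ratio (Cyp2g1 and Cyp4v3), 1 with outliers removed later (Cyp2g1), 1 without the sex term (Cyp2j9) and 2 with the replicate block (Cyp2g1 and Cyp2j9). Members that passed for sex numbered 12, with 19 from Cy5 alone and 1 (Cyp4a12) with the replicate block. Among same-numbered livers only KO 2 and WT 2 differ in sex, so with that block the sex difference rests on this pair. That setting therefore cannot show how stable the sex calls are. Whether replicate numbers pair the livers was not settled. Same-numbered livers correlated at -0.429 to 0.53, but sex was left in these values. The lowest value was that of the female KO 2 with the male WT 2. The interaction passed for 0 members in limma in all settings that could fit it. Across the sexes on slide 3, Cyp2c38 reversed to -0.83 and Cyp4v3 to 0.061. The sex difference of Cyp4a10 reversed to 0.032 with Cy5 alone, 0.42 as the mean over probes and 0.36 at its next probe. The share of higher genes among those that passed was 48% in the main analysis, 71.6% with median centring, 58.4% with outliers removed later and 38% with Cy5 alone. The causes were not tested. The last probe comparison and the analysis without both KO males were chosen after seeing the data.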

Other observations

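Probes whose current RefSeq name falls in families 1 to 4, but whose name in the array files does not, were outside the rule for members. Of 7 such probes, 5 were above the background filter. The 2 probes of Cyp4a31, a fatty acid hydroxylase gene of the Cyp4a cluster, were higher in females by 1.47 (limma adjusted p = 0.0061) and 1.27 (limma adjusted p = 0.0009) on the log2 scale. Their KO minus WT differences were 0.37 and 0.53, and neither passed (limma adjusted p = 0.526 and 0.124). Cyp2d12, Cyp2d34 and Cyp4f39 passed for neither genotype nor sex.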
